A study of Mus musculus with 2 samples.

Results

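The strongest shared regions are the places where both lists of a ChIP-seq experiment held a high-scoring region. They were chosen by the scores of both lists, as overlapping pairs, one region from each list with at least 1 bp in common, in which the sample 1 score was 297.14 or more and the sample 2 score was 148.77 or more, on chromosomes 1 to 19 and X. These limits cut off the upper 10% of each list by score. The choice gave 677 merged pairs out of 20651 overlapping pairs in all. The 677 pairs lay at 675 distinct places and covered 101.8 kb, because in 2 places a region of one list met 2 regions of the other. Members that share a region in this way are counted as pairs throughout, with the rest of the shared pairs on the same chromosomes, 19949 in number, beside them.

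The experiment was a chromatin immunoprecipitation from corneal epithelium of mice at postnatal day 7, with 2 replicates in 1 group. The mice carried K14 DN-Clim, a dominant-negative Clim with a Myc tag under the keratin 14 promoter, so the tagged protein is made in keratin 14-positive epithelial cells and the antibody sees the transgene product, not endogenous Clim. Libraries from mice without the transgene or from input chromatin are not analysed here, and the scores therefore stand without a background. The labels do not say whether the replicates came from separate animals, and agreement between them may be technical.

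Clim proteins (Ldb, Nli) are cofactors without a DNA-binding domain. They form dimers and hold LIM-homeodomain and LIM-only proteins together in complexes on enhancers and promoters. A dominant-negative form that keeps the LIM-binding part but cannot dimerise occupies LIM partners without joining them, so its own contact with chromatin runs through such a partner. Peak callers such as MACS mark stretches where reads pile up, and pile-ups can come from a bound protein, from amplified copies of one fragment or from sequence that exists in many near-identical copies. Ribosomal and satellite DNA are known examples of such sequence. Whether a member lies in repeated sequence, and which genes are near it, was not analysed here, since the gene table and promoter sequences at hand are in GRCm38 coordinates and the lists are in mm9.

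Among the 20626 shared pairs on these chromosomes, 677 passed both limits, 3.28% of the pairs. The rule itself used the scores, so the next values describe the choice and support nothing. Of the 2563 sample 1 regions at or above their limit, 676 (26.4%) had a sample 2 partner past its own limit, 1667 (65.0%) had a lower-scoring partner and 220 (8.58%) had none. Of the 4259 sample 2 regions at or above their limit, 676 (15.9%) had a sample 1 partner past its limit, 2944 (69.1%) had a lower-scoring partner and 639 had none. Most high-scoring regions of either list had a partner in the other list, more often one below its limit. The whole lists held 25592 regions in sample 1 and 42619 in sample 2, and made 20651 overlapping pairs. The share with a partner over all regions was not worked out, so these counts are not read as particular to high scores. In pairs past the sample 1 limit the sample 2 limit was reached by 28.8%, against 16.1% of pairs below it.

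The sample 1 score of the 677 members had a lowest value of 297.14, a median of 356.1 and a highest value of 3045.58. The sample 2 score had a lowest value of 148.77, a median of 198.4 and a highest value of 3100. The same value, 3100, was the highest sample 1 score among the other shared pairs, and whether it is a ceiling of the score was not tested. The scores are the peak caller's own, as the authors deposited them, without a stated meaning, and they are set side by side only as positions within each list. Most members lay close to the limits. The lower of the 2 score percentiles was between the upper 10% and the upper 5% in 410 members, between 5% and 2% in 183, between 2% and 1% in 37, and within the upper 1% of both lists in 47. Within the members, the order of the scores was hardly shared, with Spearman's rho of 0.16 across the 677 pairs, which are not independent and whose range the limits narrow. It was 0.11 across the 19949 other shared pairs, from which the rule took out the pairs high in both scores. That value pools the width classes defined below. In pairs wide in both lists rho was 0.19 in members and 0.40 in the other pairs. In pairs narrow in both lists it was 0.05 and -0.005. The values are therefore a description.

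**Figure D1:**
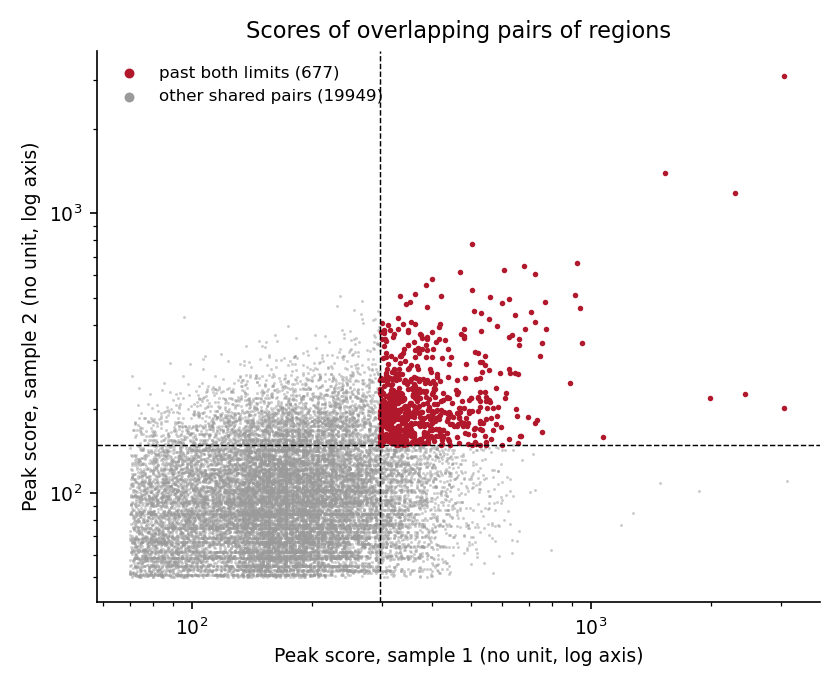
Peak score in sample 2 against peak score in sample 1, both on log axes without unit, for 677 pairs past both limits (red) and 19949 other shared pairs (grey), with the limits as dashed lines. Most red points lie near the corner of the limits, and 3 points stand above 900 in both samples.

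The limits fell in a dense part of the scores. The 3 members just inside the sample 1 limit all scored 297.14 there, at chr10:27811237-27811322, at chr1:59945821-59946010 and at chr17:64694122-64694277. The 3 pairs just outside it scored 296.83, 296.83 and 296.56, on chromosomes 16, 3 and 5, although the chromosome 5 pair reached 323.54 in sample 2. On the sample 2 side, the 3 members just inside scored 148.77, 148.77 and 148.79. The pairs just outside scored 148.76, 148.42 and 148.37. No gap in the scores separates members from the pairs beside them.

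Some pairs with very high scores in one sample are not members. Of the shared pairs with a sample 1 score above 900, 11 were members and 5 were not. The 5 were singled out after their values were seen. The highest was at chr9:35112767-35113197, with the top score of 3100 in sample 1 and 110.41 in sample 2, at the 74.2 percentile of that list. The others were at chr4:70039121-70039389, at chr9:3000001-3000286, the first region of that chromosome in the lists, at chr6:103598948-103599319 and at chr12:75904790-75905570. Their sample 1 scores were between 1190.44 and 1869.24, and their sample 2 scores between 76.66 and 108.76. In the opposite direction, the highest sample 2 score outside the members was 504.57, at chr8:127172023-127172390, with 236.10 in sample 1.

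The members with the highest scores in both lists were few and mostly wide. On each chromosome the member with the highest mean percentile was taken, which gives 20 regions. By the width boundaries given below, 17 of them were wide in both lists. Among all members 216 of 677 (31.9%) were, and among the other shared pairs 23.0%. The 20 were picked by score, and width comes from the same calls, so this is a description. The strongest of chromosome 17, at chr17:39979868-39983724, spanned 3857 bp and scored 3045.58 in sample 1 and 3100 in sample 2. Its nearest other shared region was 229077 bp away, and 4 other shared regions lay within 500 kb of it. The same sample 1 region also met a second sample 2 region, from 39983391 to 39983732, which scored 202.02, and that pair is a separate member with an overlap of only 8.8% of the merged width. The strongest of chromosome 11, at chr11:108872943-108873394, had scores of 2297.98 in sample 1 and 1185.29 in sample 2, and its edges in the lists left an overlap of 95.4%.

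The strongest members of the other chromosomes scored lower than these in both samples. The member at chr7:89801077-89801405 scored 605.59 in sample 1 and 627.31 in sample 2. The member at chr9:118801238-118801467 scored 560.88 and 500.47 in samples 1 and 2. The member at chr16:36675181-36675424 scored 598.24 in sample 1 and 479.80 in sample 2. These regions were 329, 230 and 244 bp wide after merging, several times narrower than the chromosome 17 region. The member at chr18:77226166-77226413 scored 635.39 in sample 1 and 366.74 in sample 2. Its sample 1 part was 108 bp wide and lay wholly within the 248 bp of sample 2.

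On chromosome X, the strongest member lay from 84483660 to 84483796 and scored 755.82 in sample 1 and 345.19 in sample 2. It had 1 other shared region within 500 kb, where a median member had 11. The member at chr8:24205932-24206281 scored 482.47 in sample 1 and 384.90 in sample 2, with 15 other shared regions within 500 kb. The member at chr19:25055405-25055539 scored 505.01 and 531.05 in samples 1 and 2, and likewise had 15 such neighbours. High scores in both lists were thus found in both thinly and densely occupied surroundings. The lowest mean percentile among the 20 was that of chromosome 13, 98.69, for the member from 39013096 to 39013211. It scored 545.95 in sample 1 and 213.51 in sample 2, and another shared region lay 320 bp from it.

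Of the remaining strongest members, the one at chr1:16468321-16468612 scored 657.97 in sample 1 and 266.36 in sample 2, and its regions in the lists overlapped by 48.3% of the merged width. The member at chr6:50026916-50027031 scored 510.93 in sample 1 and 447.43 in sample 2 within 116 bp, with an overlap of 94.0%. The member at chr10:81777204-81777413 scored 557.23 and 419.04 in samples 1 and 2 and was 6235159 bp from the next member. The member at chr14:46969947-46970063 scored 609.55 in sample 1 and 219.32 in sample 2. The member at chr15:97764199-97764369 scored 521.15 in sample 1 and 317.44 in sample 2. The regions at the top of chromosomes 2, 3, 4, 5 and 12 had mean percentiles of 99.92, 99.94, 99.95, 99.93 and 99.93, and merged widths of 229, 254, 1820, 459 and 267 bp.

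At the limits of the rule, merged members were a little narrower than other shared pairs at the median, and more of them were very wide. The median merged width was 117 bp for members, with quartiles of 88 and 170 bp, against 131 bp for the other shared pairs, with quartiles of 85 and 170 bp. Width comes from the same calls as the score, so these values are a description. Pairs past the sample 1 limit alone and past the sample 2 limit alone had medians of 113 and 111 bp. With the upper 5% of each list the order turned, at 137.5 bp for the pairs chosen and 131 bp for the rest, and with a reciprocal overlap of at least 50% the medians were 113 bp in members and 112 bp in the others. A merged width of 300 bp or more was found in 27 members (3.99%, exact 95% interval 2.64 to 5.75%) and in 160 of the other pairs (0.802%, 0.683 to 0.936%). A merged width of 1 kb or more was found in 4 members and in none of the 19949 other pairs, with an exact 95% interval that reaches up to 0.0185% there. Those 4 are both chromosome 17 pairs above, a 1820 bp region at chr4:3016594-3018413, and a 1161 bp region at chr2:98506365-98507525. The fifth widest was 923 bp, at chr12:68160086-68161008, with scores of 744.59 in sample 1 and 308.19 in sample 2.

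At the other end, the narrowest members were 74 bp wide, at chr13:31743036-31743109 and at chr6:89732344-89732417. The next narrowest were 75 bp wide, on chromosomes 19, 1 and X. In the chromosome 6 member both lists began at the same base, and the sample 2 region ended 16 bp earlier than the sample 1 region. The sample 1 scores of the 5 narrowest members lay between 303.74 and 317.32, not far above the limit. Their sample 2 scores lay between 155.17 and 204.54, and the highest of them was above the median of all members, 198.4.

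Regions of each list fall into a narrow and a broader population, and a region is called narrow here when its width is below 105 bp in sample 1 or below 100 bp in sample 2. The narrow population of the members sat at greater widths than that of the other pairs. In sample 1 the fullest 5-bp bin of widths was 80 to 84 bp for members and 70 to 74 bp for the other pairs. In sample 2 it was 70 to 74 bp for members and 60 to 64 bp for the other pairs. The boundary therefore runs through the upper slope of the members' narrow population in sample 1, where 80 of the 245 wide members (32.7%) lay within 20 bp above it, against 1261 of 7267 (17.4%) in the other pairs.

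**Figure D2:**
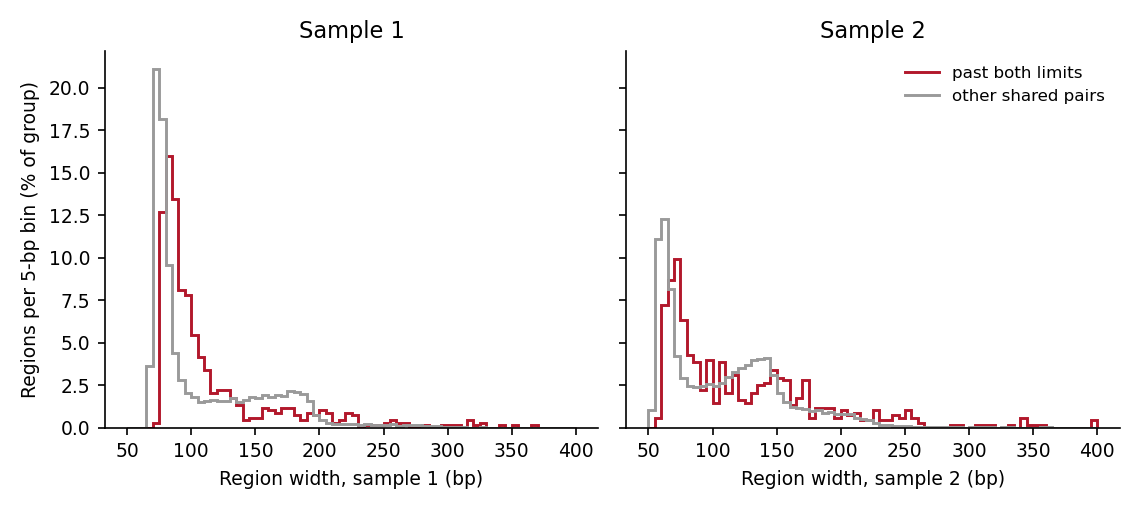
Share of regions in each 5-bp bin of width, in sample 1 (left) and sample 2 (right), for pairs past both limits (red) and other shared pairs (grey); widths above 400 bp are not drawn. The red peak sits to the right of the grey one in both samples, at 80 to 84 bp against 70 to 74 bp in sample 1.

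Members more often kept their width class between the lists. Of the members, 290 (42.8%, exact 95% interval 39.1 to 46.7%) were narrow in both lists, against 36.2% of the other pairs (35.5 to 36.8%). Of the members, 216 (31.9%, 28.4 to 35.6%) were wide in both lists, against 23.0% of the other pairs (22.4 to 23.6%). The class differed between the lists in 171 members (25.3%, 22.0 to 28.7%), against 40.8% of the other pairs (40.2 to 41.5%). Of the members, 29 (4.28%) were wide in sample 1 and narrow in sample 2, against 2678 other pairs (13.4%), and their median sample 1 width was 111 bp, just above the boundary. The share of class changes was 46.7% in pairs past the sample 1 limit alone and 26.6% in pairs past the sample 2 limit alone, so the value of the members was close to that of the second set. Pairs narrow in both lists made up 46.7% (44.3 to 49.1%) of the pairs past the sample 1 limit alone and 49.1% (47.2 to 50.9%) of those past the sample 2 limit alone, both above the value of the members, although the first interval overlaps theirs. The intervals cover counting error over regions only and treat regions as independent. The excess of narrow pairs in the members depended on the setting. With the upper 5% of each list it turned, with 29.6% (24.2 to 35.5%) of the pairs chosen narrow in both lists, against 36.5% (35.8 to 37.1%) of the rest. When a reciprocal overlap of at least 50% was asked of all pairs, 46.0% of the members and 46.9% of the other pairs were narrow in both lists. With the upper 20% of each list in place of the limits, 20.02% of the pairs chosen were wide in both lists, against 23.6% of the rest.

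Among the members, the width class followed the score. Of the 410 members between the upper 10% and 5%, 51.2% were narrow in both lists and 22.0% were wide in both. Of the 183 members between 5% and 2%, 39.3% were narrow in both and 37.2% wide in both. Of the 37 members between 2% and 1%, 18.9% were narrow in both and 48.6% wide in both. Of the 47 members within the upper 1% of both lists, 1 (2.13%, exact 95% interval 0.0539 to 11.3%) was narrow in both and 40 (85.1%, 71.7 to 93.8%) were wide in both. The median merged width was 104.5, 118, 150 and 202 bp over these tiers, from low to high. With the boundary 20 bp higher in each list, a setting chosen after the widths were seen, 70.2% of the members within the upper 1% were wide in both, against 13.9% of those between the upper 10% and 5%.

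**Figure D3:**
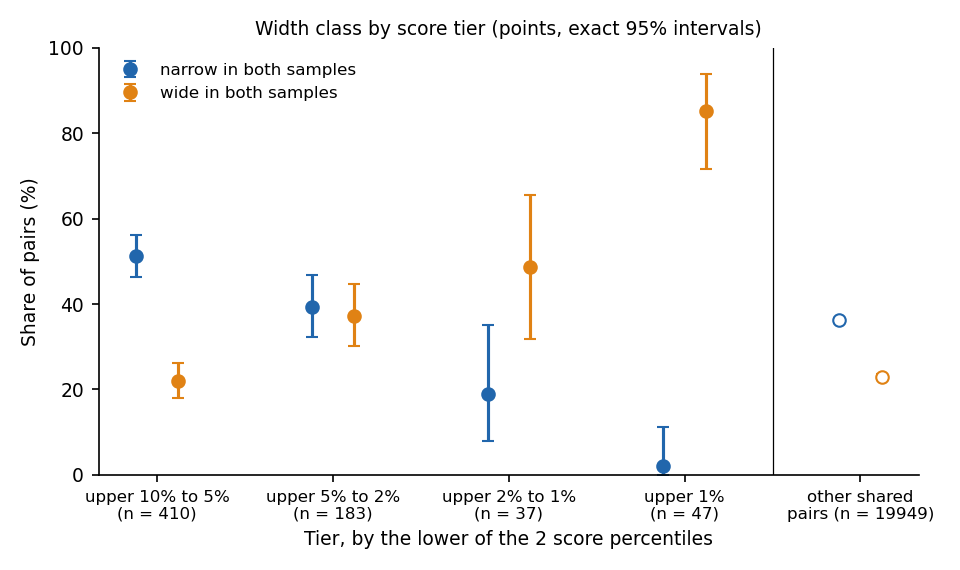
Share of pairs narrow in both samples (blue) and wide in both samples (orange), with exact 95% intervals, in 4 tiers of the members from low to high score (filled) and in the other shared pairs (open, right). Narrow pairs make up 51.2% of the lowest tier and 2.13% of the highest, while wide pairs make up 22.0% and 85.1%.

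Scores and widths were related in a way that differed by list, in the members and in the other pairs. Across the 290 members narrow in both lists, Spearman's rho of score and width was 0.40 in sample 1 and 0.08 in sample 2. Across the 216 members wide in both lists, it was 0.08 in sample 1 and 0.38 in sample 2. In the other pairs it was 0.20 in sample 1 and -0.04 in sample 2 for those narrow in both lists. For other pairs wide in both lists it was -0.03 and 0.21 in samples 1 and 2. Over all width classes, rho was 0.39 in sample 1 and 0.25 in sample 2 for members, against -0.42 and -0.18 for the other pairs. Scores of the same member in both lists had a rho of 0.05 in the narrow and 0.19 in the wide ones, against -0.005 and 0.40 in such other pairs. These correlations run across regions that share a library, and the scores of the members were cut at a limit, so the values are a description only.

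The regions of a member lay closely on each other. The overlap made up a median of 78.9% of the merged width in members, with quartiles of 64.7 and 83.7%, against 67.3% in the other pairs, with quartiles of 48.2 and 79.0%. Pairs past the sample 1 limit alone had a median of 72.6% and pairs past the sample 2 limit alone one of 76%. The midpoints of the lists were a median of 9.5 bp apart in members and 15 bp apart in the other pairs. Within a width class the difference was smaller for narrow regions: the median overlap was 80.3% in members narrow in both lists, against 78.2% in such other pairs. In members wide in both lists it was 79.6%, against 70.5% in such other pairs. A reciprocal overlap of at least 50% was reached by 631 members (93.2%, exact 95% interval 91.0 to 94.98%), against 77.1% of the other pairs (76.6 to 77.7%).

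Edges at the same base were found in 140 members. A start or an end at exactly the same base occurred in 20.7% of members (exact 95% interval 17.7 to 23.9%), against 15.1% of the other pairs (14.6 to 15.6%). In members narrow in both lists the share was 27.9% (22.8 to 33.5%), against 21.8% (20.8 to 22.7%), and in members wide in both lists it was 16.2% (11.5 to 21.8%), against 12.4% (11.5 to 13.4%). No member had both its start and its end at the same base (exact 95% interval 0 to 0.543%). Of the other pairs, 25 did (0.125%), a share within that interval, so a difference was not detectable. For members narrow in both lists the edge of sample 2 also gathered 16 bp further in than that of sample 1, at 15.7% of starts and ends, against 11.8% in such other pairs. In pairs wide in both lists the values were 5.32% in members and 7.28% in the other pairs, but without a detectable difference. The exact 95% interval of these members was 1.92 to 7.76% for starts and 3.59 to 10.6% for ends. The other pairs lay within both, at 7.34% for starts and 7.21% for ends. At 8 bp further in, between these positions, the share in pairs narrow in both lists was 0.690% for members and 0.783% for the other pairs. A pair with one edge at the same base and the other 16 bp further in made up 28 of the 290 narrow members (9.66%, 6.51 to 13.7%) and 4.91% (4.42 to 5.43%) of such other pairs.

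**Figure D4:**
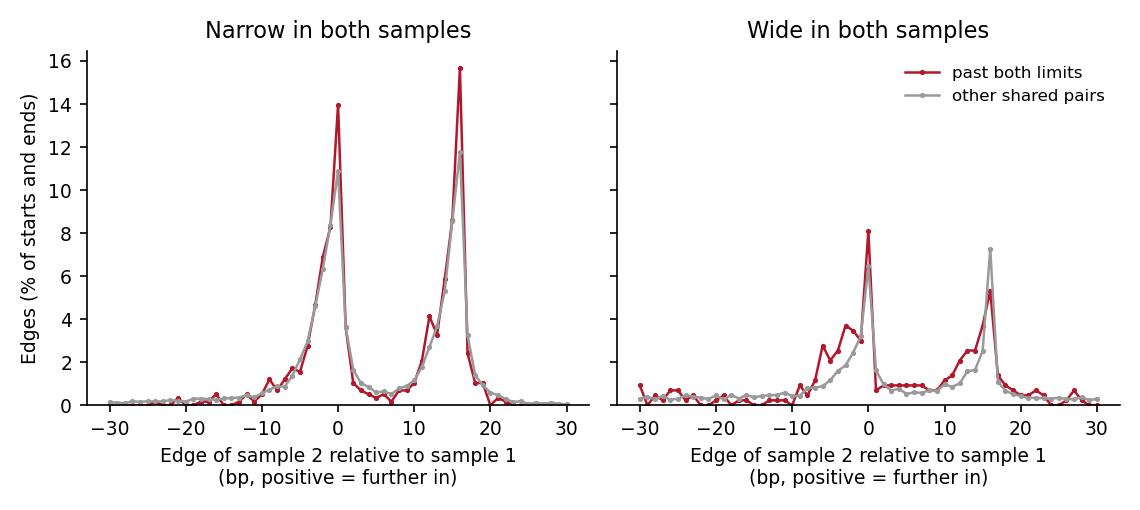
Position of the sample 2 edge relative to the sample 1 edge in bp, as a share of all starts and ends, in pairs narrow in both samples (left) and wide in both samples (right), for pairs past both limits (red) and other shared pairs (grey). In narrow pairs both groups peak at 0 and at 16 bp further in, with red at 15.7% and grey at 11.8% for the second peak, while in wide pairs red is at 5.32% and grey at 7.28% there. For wide pairs the difference at this position is not detectable at this number of members. For narrow pairs the exact interval of the members holds the value of the other pairs for starts but not for ends.

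Every one of the 20 chromosomes carried members, from 16 on chromosome 14 to 57 on chromosome 2. Set against the shared pairs of the same chromosome, members made up between 1.96% and 4.42%. The exact 95% interval held the value of 3.28% over all pairs on 19 of the 20 chromosomes. The exception was chromosome 14, where 16 of 816 pairs were members (1.96%, interval 1.12 to 3.17%). No allowance was made for reading 20 intervals together, so this value does not set chromosome 14 apart. Chromosome 17 had the highest share, 40 of 905 pairs (4.42%, 3.18 to 5.97%), followed by chromosome 12 with 37 of 852 (4.34%, 3.08 to 5.94%). Over the length spanned by the lists, chromosome 17 also had the highest density of members, 0.434 per Mb, and chromosome 14 the lowest, 0.131 per Mb.

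Chromosome X carried 24 members, 3.55% of all members (exact 95% interval 2.28 to 5.23%), against 2.86% of the other pairs (2.64 to 3.10%). Its density of members was 0.149 per Mb, and the other pairs on X had 3.54 per Mb, the lowest of the 20 chromosomes. Members made up 4.03% of the X pairs (2.60 to 5.94%). The low number of members on X went with the low number of shared pairs there, and at this number of members a difference in the share was not detectable. With the upper 20% of each list, which chose 1883 pairs, X held 4.09% of the pairs chosen (3.24 to 5.08%), against 2.76% of the rest (2.53 to 3.01%), so that these intervals did not overlap. Over the 19 autosomes, the density of members followed that of the other pairs, with Spearman's rho of 0.52 and Pearson's r of 0.57. The share of pairs that were members had a rho of -0.09 with it. The rho of members per Mb with protein-coding genes per Mb of the same span, taken from chromosome totals of the GRCm38 table, was 0.33, beside 0.66 for the other pairs. These are descriptions over chromosomes, in which small numbers of members per chromosome add counting error.

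**Figure D5:**
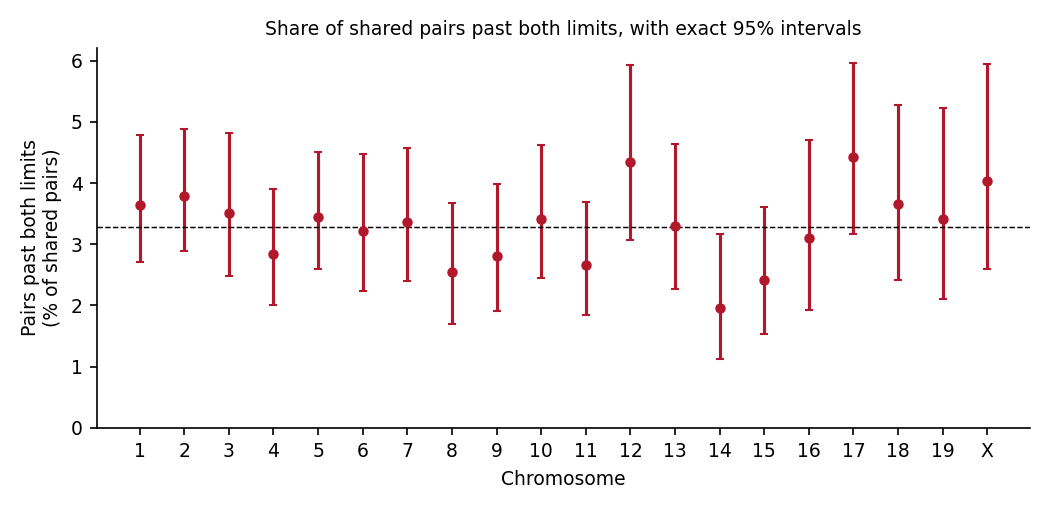
Share of the shared pairs on each chromosome that passed both limits, in percent, with exact 95% intervals and the value of 3.28% over all pairs as a dashed line. The interval holds the line on every chromosome but 14, without allowance for reading 20 intervals together.

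Members lay along the whole length of the chromosomes. The median member began 82.6 Mb from base 1 of its chromosome, with a lower quartile of 45.1 Mb, against 74.6 Mb for the other pairs, with a lower quartile of 39.7 Mb. The lists begin some way into each chromosome, so distances near the start were taken from the first region of either list. Within 3 Mb of that first region lay 14 members (2.07%, exact 95% interval 1.14 to 3.44%), against 2.19% of the other pairs (1.99 to 2.40%). Within 1 Mb lay 7 members (1.03%, 0.417 to 2.12%), against 0.707% of the other pairs (0.595 to 0.833%). At the centromeric end, members were thus not detectably more frequent than the rest at this number of regions. The 7 were on chromosomes 2, 4, 5, 6, 17 and 18, with 2 of them on chromosome 4, where the 1820 bp region from 3016594 to 3018413 is the first region of the lists. Its neighbour from 3185572 to 3185665 was only 94 bp wide and scored 476.2 in sample 1 and 213.0 in sample 2.

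Toward the distal end, the last 20% of each chromosome's span held 213 members (31.5%, exact 95% interval 28.0 to 35.1%), against 26.5% of the other pairs (25.8 to 27.1%). The first 20% held 16.2% of the members (13.6 to 19.2%), against 16.3% of the other pairs (15.8 to 16.8%). Within 3 Mb of the last region lay 21 members (3.10%, 1.93 to 4.70%), against 2.78% of the other pairs (2.56 to 3.02%). The part of the span was one of several tried, so the distal value is a description.

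Members and other pairs had much the same number of shared regions around them. The median distance to the nearest other shared region was 28.3 kb for members (exact 95% interval of the median 24.8 to 32.7 kb), against 29.5 kb for the other pairs (28.7 to 30.2 kb). Both groups had a median of 11 other shared regions within 500 kb, with quartiles of 7 and 15. Another shared region lay within 5 kb of 90 members (13.3%, 10.8 to 16.1%), against 13.6% of the other pairs (13.2 to 14.1%). The share of shared regions that were members was 2.99% in megabases with 1 to 4 shared regions, 3.28% with 5 to 9, 3.43% with 10 to 14, 3.49% with 15 to 19 and 2.93% with 20 or more. All of these intervals held 3.28%, the value over all pairs.

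A further member was about as frequent near members as near other pairs. The nearest shared region was itself a member for 25 members (3.69%, exact 95% interval 2.40 to 5.40%), against 3.30% of the other pairs (3.06 to 3.56%). Another member lay within 100 kb of 55 members (8.12%, 6.18 to 10.4%), against 8.06% of the other pairs (7.69 to 8.45%). The median distance from a member to the next member was 973.1 kb. Of the windows of 100 kb, 645 held 1 member, 15 held 2 and none held more. Of the windows of 1 Mb, 14 held 3 members and 1 held 4, at chr17:88000001-89000000. The strongest of these 4 lay from 88155501 to 88155658 and scored 950.15 in sample 1 and 344.27 in sample 2.

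The closest members were on chromosome 2, 3183 bp apart, and they were part of a run of 4 shared regions. The first, from 98502355 to 98503181, scored 1994.19 in sample 1 and 219.46 in sample 2. The second, from 98503761 to 98504282, scored 530.76 and 148.76 in samples 1 and 2 and fell just short of the sample 2 limit. The third, from 98505006 to 98505414, scored 251.18 and 351.96 and missed the sample 1 limit. The fourth, from 98506365 to 98507525, scored 2431.67 in sample 1 and 226.90 in sample 2. All 4 were wide in both lists, with overlaps between 93.2 and 97.6% of the merged width and gaps of 579 to 950 bp. The order of their scores differed between the lists: the third region was the lowest of the 4 in sample 1 and the highest in sample 2.

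The other close members were narrower. The members at chr13:103816629-103816763 and chr13:103821131-103821213 were 4367 bp apart, with no shared region between them. The members at chr4:97903573-97903744 and chr4:97910496-97910681 were 6751 bp apart. The first of these scored 707.85 in sample 1 and 444.79 in sample 2, and the second scored 298.55 in sample 1 and 154.52 in sample 2. The last 2 of the 5 closest pairs lay on chromosome 12, 9939 bp apart, and on chromosome 11, 12132 bp apart, each with 1 shared region between them. The densest window with 2 members lay at chr4:139300001-139400000 and held 9 shared regions. Its members, from 139320070 to 139320148 and from 139343756 to 139343913, scored 318.49 and 528.09 in sample 1 and 218.50 and 214.14 in sample 2. The next windows were at chr9:65400001-65500000 with 5 shared regions, and on chromosomes 1, 2 and 10 with 4 each.

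One further pair passed both limits outside the chromosomes of the rule. It lay on the mitochondrial genome from 4 to 1712, with scores of 364.66 in sample 1 and 220.63 in sample 2. None of the pairs on chromosome Y passed both limits.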

How the data were processed

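ChIP-seq regions of 2 replicate immunoprecipitates with an antibody to the Myc tag were analysed. Per the submitters' processing notes, Bowtie 0.12.7, bedtools 2.11.2 and the mm9 build were used, and region names begin with MACS. Settings and any control library: not given in the sources used here. Each region's score is as deposited by the authors, with no stated meaning, and served to rank and filter regions within a list. Per the labels' protocols, reads of 2 lanes were combined per replicate and each list belongs to 1 replicate. Depth is unknown.

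Regions were paired, merged and measured with numpy 2.4.6, pandas 2.3.3 and scipy 1.17.1 in Python 3.11.15. Neighbours were the 20550 distinct shared regions. Shares carry exact (Clopper-Pearson) 95% intervals, and intervals of medians are exact order-statistic intervals; both cover counting error only. No test was run, because the scores of both replicates chose the members and there is 1 group. The pairing was tested on simulated data, where 300 of 300 planted members among 5000 pairs were found. The members, limits and width boundaries were chosen with earlier results of these data known. Named regions were the strongest member per chromosome, those at the score limits, the 5 widest and narrowest, the 5 closest pairs of members and the 5 fullest windows of 100 kb. Positions relative to genes and sequences were left out for want of mm9 references. Coordinates count from 1.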

Additional observations from a re-analysis of the deposited data

How the results depend on the processing

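Of 48 alternative values, 28 stayed within the exact 95% interval of the reported value (for the count, within 1.5 times) and 20 moved. The share of members on X, 3.55%, stayed within its interval in every alternative run. Among these runs, counted in the 28, the other shared pairs took the place of the members and gave 2.86%. The interval is thus too wide for staying within it to show that the share is stable. The contrast of the X share with the other pairs did change: with the upper 20% it was 4.09% (3.24 to 5.08%), against 2.76% (2.53 to 3.01%) in the rest. The count of members was 270 with the upper 5% of each list, 1883 with the upper 20%, and between 2563 and 4259 with either list alone. The median width of 117 bp was 137.5 bp with the upper 5%, above the 131 bp of the rest, and 106 bp with the upper 20%, and with either list alone the median width in that list was 72 to 84 bp. The share narrow in both lists, 42.8%, was 29.6% with the upper 5%, below the 36.5% of the rest there, 49.8% with the upper 20% and 53.9% with the boundary 20 bp higher, a setting chosen after seeing the data. With either list alone, 67.4 to 83.5% were narrow in that list. The share near the first region was 1.03% within 1 Mb and 6.35% within 10 Mb, by construction. The median distance to the nearest neighbour was 973.1 kb with members alone as neighbours. The median count of neighbours was 1 within 50 kb and 90 within 5 Mb. An edge within 1 base was found in 36.3% and within 5 bases in 66.5% of members. With a reciprocal overlap of at least 50% for all pairs, 46.0% of members and 46.9% of the other pairs were narrow in both lists, so that difference was lost. With the upper 20%, 20.02% of members and 23.6% of the others were wide in both lists, the opposite order to the reported one; the cause was not tested. The count within 500 kb with either list alone, chosen after seeing the data, was 10 to 11. Alternatives for promoters and genes were not run. No paired analysis was possible because there is 1 group. Depth is unknown, so a score below a limit cannot be told apart from a region read less deeply.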
